A study of Mus musculus with 32 samples.

Results

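The nuclear genes for subunits of the mitochondrial respiratory chain and of ATP synthase were compared between 8 B6.D2 congenic mice and 8 C57BL/6J (B6) littermates in RNA-seq counts from the striatum. Members were chosen by gene symbol, taking those that begin with *Nduf* followed by a, b, c, s or v, the genes *Sdha* to *Sdhd*, and symbols beginning with *Uqcr*, with *Cox4* to *Cox8* or with *Atp5*. Assembly factors beginning with *Ndufaf* and the gene *Uqcrq* were left out by the rule, and a mean of at least 1 CPM (gene counts scaled to library size) over the 16 mice was required. Of 23420 genes in the count table, 80 met the rule: 35 of complex I, 4 of complex II, 7 of complex III, 17 of complex IV, 16 of complex V and *Atp5sl*, which bears an ATP synthase symbol without being a subunit of the enzyme. By their symbols, *Cox7a2l*, a supercomplex assembly factor, was counted in complex IV, and *Atp5s*, known as a coupling factor, in complex V. Among the 92 symbols of the pattern, 8 were left out by name and 4 had a mean under the minimum. The members nearest the minimum were *Cox7a1*, at a mean of 1.10 CPM inside it, and *Cox7b2*, at 0.365 CPM outside it. *Cox8b* and *Cox8c* were also under the minimum, and *Ndufs5* was listed at 0 in every library. Reads with several alignments, or over several genes, are not in the counts. Whether *Ndufs5* is absent or its reads were not counted was not tested.

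The congenic mice were heterozygous for a DBA/2J-derived (D2) segment of chromosome 11 that includes *Hnrnph1*, on a B6 background, and their B6 littermates lacked the segment. Residual D2 heterozygosity on another chromosome was found by the study in these lines, in congenic mice and littermates alike. Mice of both genotypes were naïve, about 50 days old by the labels, and of both sexes, although the labels do not give the sex of a mouse. Punches of the left and right striatum were pooled per mouse and made into 1 library from poly(A) RNA. Mice 1 to 4 of both genotypes were run on lanes 5 and 6, and the rest on lanes 7 and 8. Gene counts ranged from 19032826 to 33748353 reads per mouse in B6 and from 24912413 to 32085311 in the congenic mice.

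Complexes I to IV of the inner mitochondrial membrane pass electrons from NADH and succinate through ubiquinone and cytochrome c to oxygen, and complexes I, III and IV pump protons as they do so. ATP synthase, complex V, lets the protons flow back and makes ATP. Neurons, with their high demand for ion pumping, depend on this supply, and several subunits, mostly of complex IV and of the membrane ring of complex V, are encoded by alternative genes with tissue-specific use.

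The tissue label was checked against marker genes. All 9 markers of striatal projection neurons were present in every library, with a summed level of 5776 to 8502 CPM in B6 (median 6573) and 6298 to 7391 CPM in the congenic mice (median 7185), and *Pde10a* had the most counts among them, with a mean of 1512 CPM. Between the genotypes, 0 of these 9 genes had an unadjusted p under 0.05, with all mice or without congenic mouse 1. With B6 mouse 8 left out too there were 2, *Adora2a* and *Bcl11b* (named after their values were seen), both higher in the congenic mice. The 5 markers of cortical glutamatergic neurons were detected as well, summing to 375 to 634 CPM in B6 and 225 to 542 CPM in the congenic mice. All 5 had lower levels in the congenic mice at an unadjusted p under 0.05, where 10% of all genes tested had such a p in either direction. Of these markers, 0 passed an FDR of 5%. Their median log2 fold change was -0.56, and -0.57 without congenic mouse 1. In the paper's own edgeR model, with home cage as a covariate, *Slc17a7*, *Tbr1* and *Neurod6* were among the downregulated genes at an FDR of 5%. The part of this difference in the results for the respiratory chain was not tested. In bulk tissue, fewer cells of a type cannot be told apart from less RNA per cell.

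Libraries from 2 mice stood apart from the rest. In congenic mouse 1, 27.3% of the reads had more than 1 alignment, against 20.4% to 21.1% in the other congenic mice, and 10.2% fell outside annotated exons, against 14.5% to 15.6%. In B6 mouse 8, 11.3% of the reads fell outside annotated exons, against 14.8% to 15.9% in the other B6 mice. Of the 80 members, 79 reached their highest level of all 16 mice in congenic mouse 1, and *Ndufs1* reached it in B6 mouse 8. Most counts, medians and sums of the genotype comparison are therefore given with all mice and with congenic mouse 1, or both of these mice, left out. Most fold changes of single members are given with all mice and without congenic mouse 1. Medians of levels per kilobase, and the count of members whose genotypes did not overlap, are given with all mice only.

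Levels were first compared between genes on a scale of CPM per kilobase of transcript. Complex IV and complex V held the most abundant members. *Cox4i1*, a nuclear-encoded subunit of cytochrome c oxidase, led with 603 ± 31.4 CPM per kilobase in B6 and 636 ± 149 in the congenic mice (mean ± SD, n = 8 mice each). *Atp5b*, the catalytic beta subunit of ATP synthase, was close to it, with 590 ± 32.9 and 607 ± 59.1 CPM per kilobase (SD, n = 8 each). Both congenic means were below those of B6 when congenic mouse 1 was left out. Without it, the level of *Cox4i1* was 396 ± 9.68 CPM in 7 congenic mice against 409 ± 21.3 in B6, and that of *Atp5b* was 1124 ± 19.4 against 1130 ± 63.1 CPM (SD). For *Cox4i1* the log2 fold change was 0.077 with all mice and -0.048 without that mouse. The median over members was 158 CPM per kilobase in complex IV, 186 in complex V, 114 in complex III, 83.4 in complex I and 75.5 in complex II. In each complex the least abundant member lay well under this median, *Ndufa11* in complex I at 21.9 CPM per kilobase, *Sdhc* in complex II at 30.9, *Uqcrfs1* in complex III at 72.2, *Cox6b2* in complex IV at 2.56 and *Atp5s* in complex V at 9.73.

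**Figure D1:**
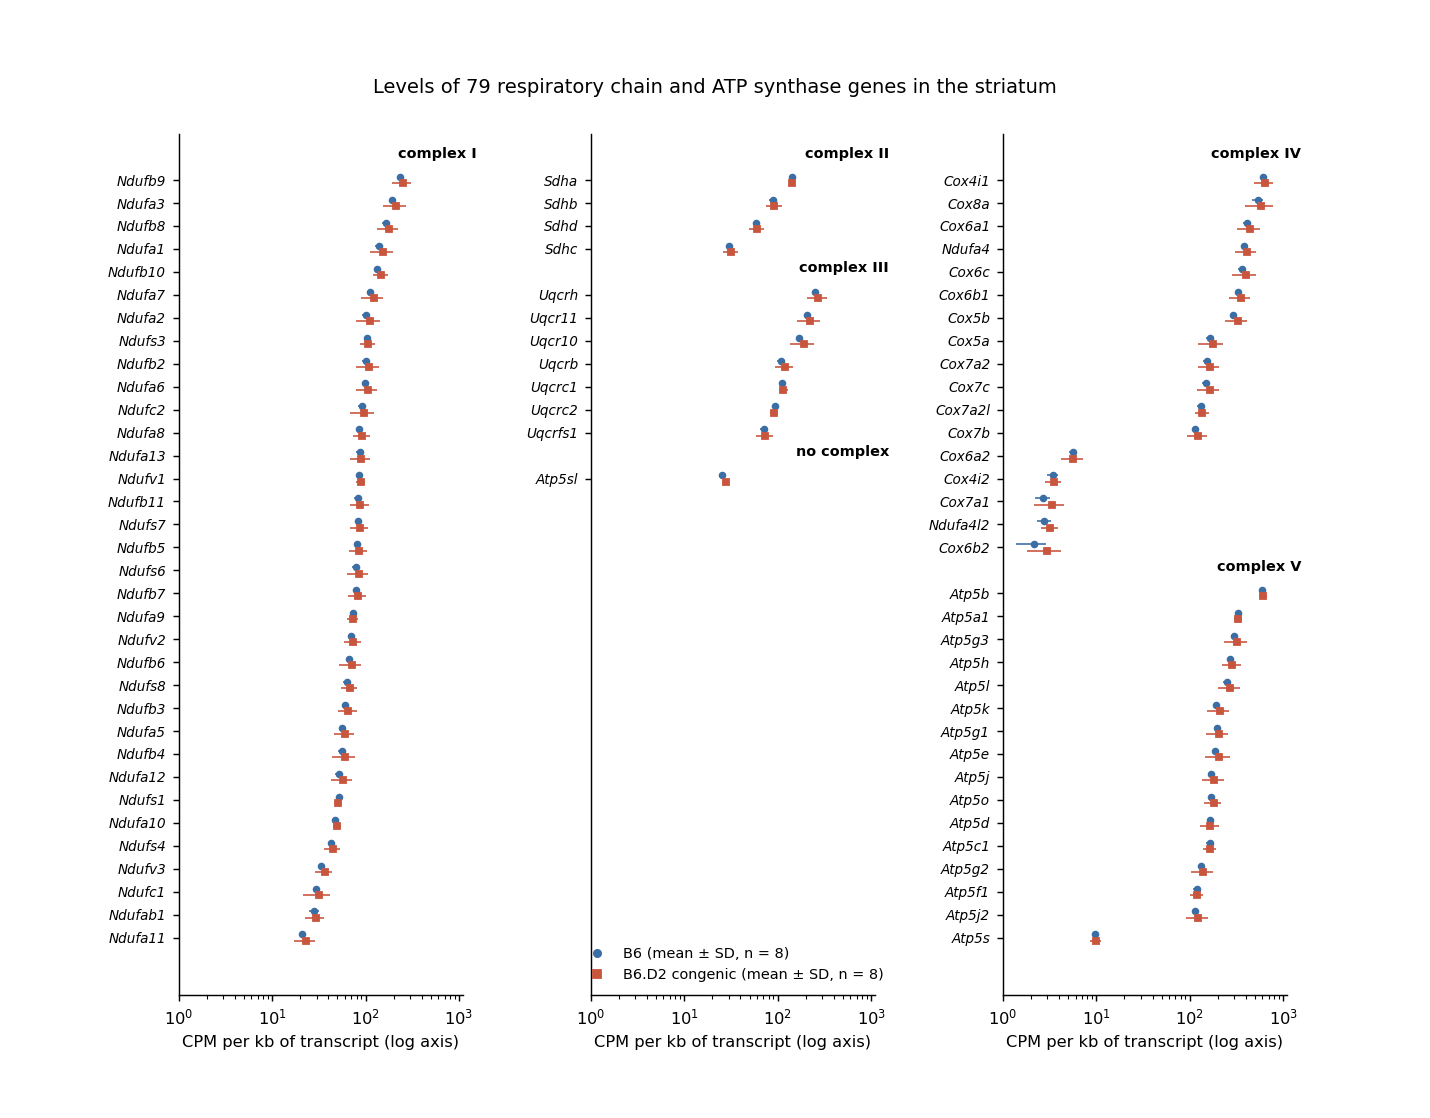
Level of 79 of the 80 members in CPM per kilobase of transcript (log axis), as the mean and SD of 8 B6 and 8 congenic mice. Genes are ordered by level within each complex. The 5 alternative isoforms of complex IV lie between 2.56 and 5.66 CPM per kilobase, far to the left of the other complex IV genes.

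The 11 ubiquitous subunits of complex IV ranged from 119 CPM per kilobase for *Cox7b* to 619 for *Cox4i1*, and the 5 alternative isoforms of that complex from 2.56 to 5.66. Within complex I, the core subunits that carry the flavin and the iron-sulfur clusters had a median of 84.9 CPM per kilobase, and *Ndufs1* had the lowest level among them, at 51.5. The accessory subunits had a median of 82.4 and reached 242 CPM per kilobase for *Ndufb9*. Complex II is made of a flavoprotein, *Sdha* (142 CPM per kilobase), an iron-sulfur protein, *Sdhb* (91.1), and the membrane anchors *Sdhc* (30.9) and *Sdhd* (59.8). Levels between genes carry an uncertainty beyond the spread between mice. Reads with more than 1 alignment were not counted, and many of these genes have processed pseudogenes that resemble their transcripts. Ranks per kilobase also rest on 1 transcript length chosen for each gene. By mean CPM, *Sdhc* (98.0) was above *Sdhd* (76.9), and *Ndufa11* (58.3) was above *Ndufv3* (54.7).

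Promoters of the members were searched for the letters of motifs known from nuclear genes of mitochondrial proteins. Windows of 300 bases around the start were found in RefSeq (GRCm38.p6) for 67 of the 80 members, 73 windows in all, and both strands were searched. GCGCATGC, one arm of the palindromic NRF1 motif that can overlap its own reverse complement, stood in 13.7% of the members' windows and in 2.71% of all 32851 windows. AAGATGGC, the core of a YY1 motif, stood in 16.4% and 2.75%, and CCGGAAGT, an ETS motif, in 6.85% and 3.89%. These shares are a description, and a match is not evidence of binding. By complex, the NRF1 letters were found in 3 of 31 members of complex I, 1 of 3 of complex II, 2 of 5 of complex III, 1 of 12 of complex IV and 3 of 15 of complex V. As examples, the 170 bases before the start are shown for 1 member of each complex, picked because its window holds the NRF1 letters, with any searched motif in capitals: *Ndufa11* (chr17:56717592-56717761, plus strand), *Sdhb* (chr4:140961101-140961270, plus strand), *Uqcr11* (chr10:80406822-80406991, minus strand), *Cox6a1* (chr5:115348959-115349128, minus strand) and *Atp5g2* (chr15:102671048-102671217, minus strand).
Ndufa11: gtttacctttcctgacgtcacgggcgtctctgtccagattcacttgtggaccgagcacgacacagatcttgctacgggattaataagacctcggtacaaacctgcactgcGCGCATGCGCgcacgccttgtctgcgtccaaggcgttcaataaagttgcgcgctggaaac
Sdhb: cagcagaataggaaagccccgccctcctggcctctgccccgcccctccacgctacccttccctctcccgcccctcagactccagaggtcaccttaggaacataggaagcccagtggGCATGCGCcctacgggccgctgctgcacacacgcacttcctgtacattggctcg
Uqcr11: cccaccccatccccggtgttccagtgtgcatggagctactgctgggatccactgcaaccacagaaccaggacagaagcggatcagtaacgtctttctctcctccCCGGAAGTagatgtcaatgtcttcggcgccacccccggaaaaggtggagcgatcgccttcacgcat
Cox6a1: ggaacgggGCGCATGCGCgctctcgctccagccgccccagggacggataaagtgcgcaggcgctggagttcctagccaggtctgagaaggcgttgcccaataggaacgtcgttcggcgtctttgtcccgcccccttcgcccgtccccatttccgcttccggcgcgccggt
Atp5g2: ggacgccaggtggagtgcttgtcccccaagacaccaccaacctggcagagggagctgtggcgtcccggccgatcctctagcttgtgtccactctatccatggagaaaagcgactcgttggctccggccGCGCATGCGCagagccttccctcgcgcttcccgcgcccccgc
The capitals mark NRF1 letters in 4 of the sequences and the ETS letters in that of *Uqcr11*, whose NRF1 match runs across the start and out of the stretch shown. In *Ndufa11*, *Cox6a1* and *Atp5g2* a pair of overlapping matches makes up the run of capitals.

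Whether the D2 segment changed the transcripts of the respiratory chain was asked next. With all 16 mice, 0 of the 80 members were differentially expressed by edgeR's quasi-likelihood test (FDR of 5%, Benjamini-Hochberg adjustment over 15589 genes), where 0.00641% of all genes tested, a single gene outside the members, passed. At an unadjusted p under 0.05 there were again 0 of 80 members, against 1559 of all genes tested (10%). edgeR's likelihood ratio test and DESeq2 each gave 1 member at an unadjusted p under 0.05, *Cox6b2*, and 0 at an FDR of 5%. In no member did the values of the 8 congenic mice lie apart from those of the 8 B6 mice, which 0.0577% of all genes tested did.

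Log2 fold changes (congenic over B6) were positive for 77 of the 80 members with all mice, with a median of 0.096, while 54.9% of all genes tested were positive, with a median of 0.012. RLE and upper-quartile scaling gave 77 and 78 positive members. The direction turned when 1 library was left out. Without congenic mouse 1, 12 of 80 members were positive and the median was -0.028, against 49.6% and -0.00091 over all genes. Without that mouse and B6 mouse 8, 23 of 80 were positive and the median was -0.016, against 49.1% of all genes. The median standard error of the members' log2 fold changes fell from 0.105 with all mice to 0.045 without congenic mouse 1. Then 3 of 80 members had an unadjusted p under 0.05, against 13.4% of all genes, and all 3 were lower in the congenic mice: *Ndufa9* of complex I, *Uqcrc2* of complex III and *Atp5d* of complex V. Their log2 fold changes were -0.079 ± 0.036, -0.086 ± 0.040 and -0.10 ± 0.049 (± SE), and edgeR gave them an FDR of 0.353, 0.362 and 0.366. With B6 mouse 8 left out too, 0 of 80 members had such a p, against 12.8% of all genes, and the log2 fold changes of these genes were -0.061, -0.057 and -0.085.

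**Figure D2:**
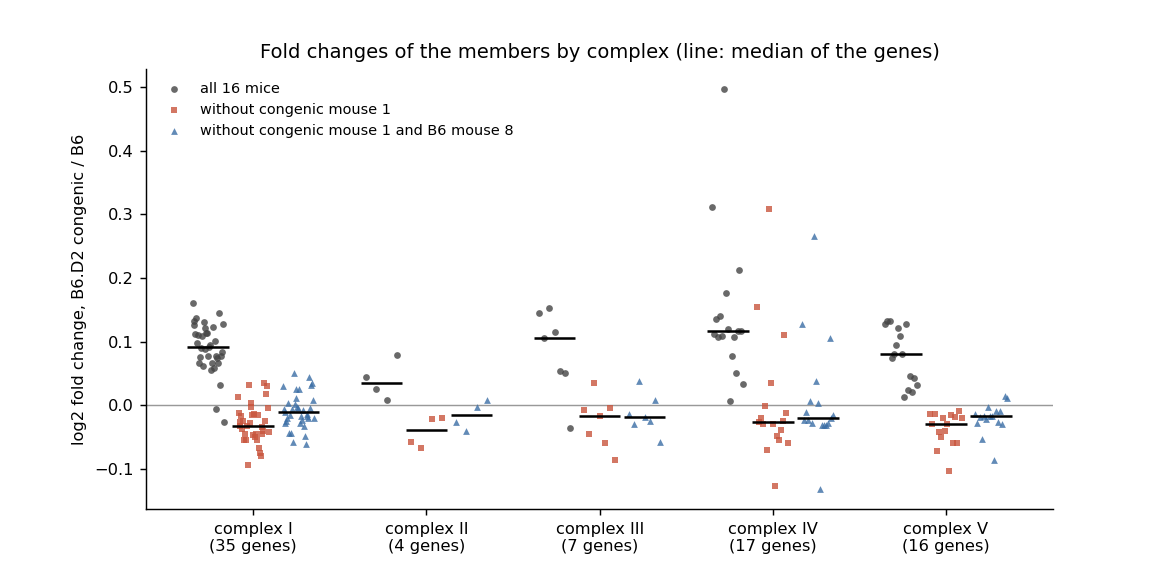
Log2 fold change (congenic over B6) of the 79 members assigned to a complex, with all 16 mice (circles), without congenic mouse 1 (squares) and without congenic mouse 1 and B6 mouse 8 (triangles). Horizontal lines are medians over the genes of a complex, which lie above 0 in all 5 complexes with all mice and below 0 in all 5 in the other fits.

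The summed level of each complex showed the same pattern mouse by mouse. Members of complex I summed to 2452 CPM in the lowest, 2673 in the median and 2989 in the highest B6 mouse, and to 2574, 2673 and 4273 CPM in the congenic mice. Congenic mouse 1 gave the highest value, and the other 7 congenic mice lay between 2574 and 2702 CPM, inside the B6 range. Complex IV summed to 1974, 2233 and 2427 CPM in B6 and to 2078, 2203 and 3944 CPM in the congenic mice (lowest, median and highest). Complex V summed to 3439, 3668 and 4144 CPM in B6 and to 3585, 3653 and 5408 CPM in the congenic mice. In both complexes, too, 7 congenic mice lay inside the B6 range and congenic mouse 1 above it. The smaller complexes did likewise, with sums of 653, 673 and 764 CPM in B6 and 658, 670 and 883 CPM in the congenic mice for complex II. For complex III the sums were 755, 813 and 880 CPM in B6 and 787, 801 and 1245 CPM in the congenic mice. B6 mouse 8 was the highest and B6 mouse 1 the lowest B6 mouse in all 5 complexes.

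**Figure D3:**
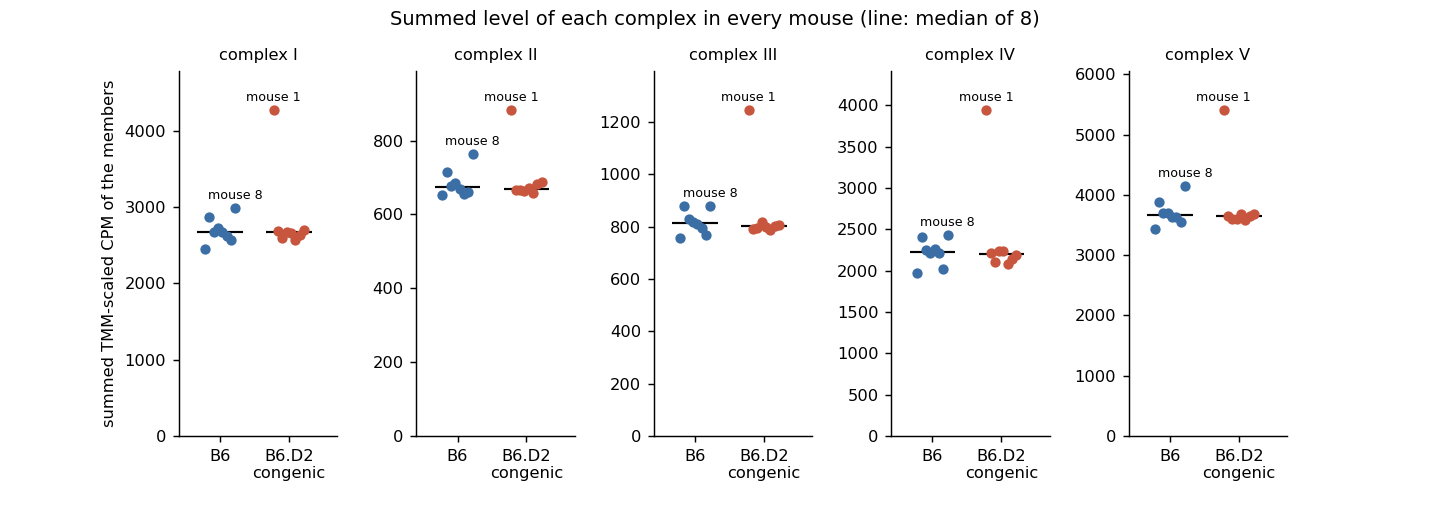
Summed TMM-scaled CPM of the members of each complex in each of the 8 B6 and 8 congenic mice, with a line at the median of each genotype. Congenic mouse 1 and B6 mouse 8 are marked. Congenic mouse 1 lies above all other mice in each panel, and the other 7 congenic mice lie within the B6 range.

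Relative to the mean of the other 7 congenic mice, congenic mouse 1 was higher by 81.5% in complex IV, 61.3% in complex I, 55.7% in complex III, 48.6% in complex V and 31.5% in complex II. The coefficient of variation of the sums between congenic mice fell without it from 26.3% to 2.93% in complex IV and from 20.2% to 1.83% in complex I, where the 8 B6 mice, mouse 8 included, had 7.23% and 6.25%. With B6 mouse 8 left out too, the SD was 148 CPM in complex IV and 130 CPM in complex I over 7 B6 mice. Over the 7 congenic mice it was 63.7 and 48.5 CPM. The means of the remaining 7 congenic mice were between 0.978 and 0.982 times the B6 means in the 5 complexes. Without B6 mouse 8 as well they were between 0.990 and 0.998 times.

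In complex I, the entry point for electrons from NADH, the fold changes of the 35 members ran from -0.026 for *Ndufs1* to 0.16 on the log2 scale, and 33 were positive with all mice, 6 without congenic mouse 1 and 11 without B6 mouse 8 as well. The smallest p-values belonged to *Ndufb10* and *Ndufv3*, accessory subunits of the membrane arm and of the NADH-binding part. *Ndufb10* had 90.9, 97.7 and 107 CPM in the lowest, median and highest B6 mouse and 97.1, 101 and 155 CPM in the congenic mice, with a log2 fold change of 0.13 ± 0.082 (SE; FDR 0.601, edgeR's quasi-likelihood test). The genotypes overlapped, and the next highest congenic mouse after mouse 1 had 103 CPM. *Ndufv3* had 46.7, 51.6 and 57.4 CPM in B6 and 49.3, 53.7 and 86.5 CPM in the congenic mice, with a log2 fold change of 0.15 ± 0.093 (SE; FDR 0.604). Leaving out congenic mouse 1, the log2 fold changes of these genes were 0.032 and 0.035. The core subunits had a median log2 fold change of 0.067 with all mice and -0.028 without that mouse. For *Ndufs1* the log2 fold change was -0.041 then. This gene, the 75-kDa subunit that holds iron-sulfur clusters of the NADH-oxidizing arm, differed least between congenic mouse 1 and the rest, with 1.08 times the median of the other 15 mice. *Ndufs3* and *Ndufv2*, further core subunits, were at 1.54 and 1.60 times. *Ndufv1*, which binds NADH and flavin, was at 1.35 times, and *Ndufs7* and *Ndufs8*, which carry the last iron-sulfur clusters before ubiquinone, at 1.65 and 1.62 times.

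Complex II, which links succinate oxidation in the citric acid cycle to ubiquinone and is encoded by nuclear genes alone, had the smallest median log2 fold change of the 5 complexes with all mice, 0.035, and a median of -0.039 without congenic mouse 1. *Sdha* had 391, 404 and 449 CPM in B6 and 395, 406 and 469 CPM in the congenic mice (lowest, median and highest), a log2 fold change of 0.0084 ± 0.043 (SE; FDR 0.960, edgeR's quasi-likelihood test) with all mice and of -0.021 without congenic mouse 1. The genotypes overlapped, and congenic mouse 1 was the only congenic mouse outside the B6 range. *Sdhc* and *Sdhb*, with log2 fold changes of 0.080 and 0.044 with all mice, had -0.021 and -0.058 without congenic mouse 1. *Sdhd* was above the B6 median in 1 of 8 congenic mice, and its log2 fold change was 0.025 with all mice and -0.068 without that mouse.

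In complex III, which passes electrons from ubiquinol to cytochrome c, the small subunits *Uqcrb* and *Uqcr10* had the smallest p-values. *Uqcrb*, which takes part in binding ubiquinone, had 51.9, 56.2 and 69.7 CPM in B6 and 53.9, 60.3 and 99.0 CPM in the congenic mice, a log2 fold change of 0.15 ± 0.10 (SE; FDR 0.615, edgeR's quasi-likelihood test) with all mice and of 0.036 without congenic mouse 1. *Uqcr10* had a log2 fold change of 0.14 ± 0.12 (SE; FDR 0.683) with all mice and of -0.0073 without congenic mouse 1. Of the larger subunits, the core protein *Uqcrc1* had a log2 fold change of 0.050 with all mice and -0.0045 without that mouse, and *Uqcrfs1*, the Rieske iron-sulfur protein, 0.053 and -0.059. The core protein *Uqcrc2* had 162, 167 and 199 CPM in B6 and 157, 166 and 208 CPM in the congenic mice, and 7 of 8 congenic mice were below the B6 median.

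Complex IV, cytochrome c oxidase, had the largest median log2 fold change with all mice, 0.12, and all 17 members were then positive. Leaving out congenic mouse 1, its median was -0.026 and 13 of 17 members were negative, and the medians of the 5 complexes lay between -0.039 and -0.017. The member with the smallest p of its complex and of all 80 was *Cox6b2*, an isoform of *Cox6b1* known from testis. It had 0.675, 1.14 and 1.82 CPM in B6 and 0.985, 1.47 and 3.04 CPM in the congenic mice, and 7 of 8 congenic mice were above the B6 median. The log2 fold change of *Cox6b2* was 0.50 ± 0.24 (SE; unadjusted p = 0.0511, FDR 0.501, edgeR's quasi-likelihood test) with all mice and 0.31 ± 0.20 (FDR 0.496) without congenic mouse 1. The unadjusted p was 0.0432 with the likelihood ratio test and 0.0460 with DESeq2. *Ndufa4l2*, an isoform of *Ndufa4* known as a hypoxia-induced gene, followed with 2.10, 2.68 and 3.46 CPM in B6 and 2.57, 2.90 and 4.55 CPM in the congenic mice, a log2 fold change of 0.21 ± 0.13 (SE; FDR 0.582) with all mice and of 0.11 without congenic mouse 1. The values of both genes overlapped between the genotypes, and congenic mouse 1 was the highest of all mice in both. Among the ubiquitous subunits, *Cox5b* had the smallest p, with a log2 fold change of 0.18 ± 0.11 (SE; FDR 0.599), and 0.035 without congenic mouse 1.

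In complex V, the log2 fold changes of the 16 members ranged from 0.013 to 0.13 with all mice. The 5 subunits of the catalytic F1 part, its central stalk included, had a median of 0.032, and the 10 genes of the outer stalk and the membrane part 0.10. These medians were -0.029 and -0.035 without congenic mouse 1. *Atp5b* had 1055, 1113 and 1265 CPM in B6 and 1102, 1126 and 1441 CPM in the congenic mice, a log2 fold change of 0.042 ± 0.058 (SE; FDR 0.824, edgeR's quasi-likelihood test) with all mice and of -0.0090 without that mouse. *Atp5a1*, its partner in the hexamer of the head, had 770, 787 and 933 CPM in B6 and 776, 795 and 1018 CPM in the congenic mice, with 0.032 ± 0.060 (SE; FDR 0.875) and -0.020. For *Atp5l* and *Atp5j2*, small membrane subunits with the smallest p-values of the complex, the log2 fold changes were 0.13 ± 0.11 and 0.13 ± 0.11 (SE; FDR 0.696 and 0.698), and -0.013 and -0.015 without congenic mouse 1. *Atp5sl*, outside the complexes, had 33.6, 38.0 and 40.3 CPM in B6 and 35.0, 39.9 and 47.6 CPM in the congenic mice, and 7 of 8 congenic mice exceeded the middle of the B6 values. For *Atp5sl* the log2 fold change was 0.11 ± 0.055 (SE; FDR 0.519) with all mice and 0.072 ± 0.045 (FDR 0.472) without congenic mouse 1.

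Alternative genes for 1 subunit were compared as shares per transcript length within each mouse, which do not depend on the scaling of the library. *Cox4i2*, known from lung, made up 0.562% ± 0.0723 of the pair with *Cox4i1* in B6 and 0.553% ± 0.0652 in the congenic mice (SD, n = 8 each; exact two-sided permutation test, p = 0.789). The muscle isoform *Cox6a2* made up 1.36% ± 0.128 and 1.26% ± 0.168 of the pair with *Cox6a1* (exact permutation p = 0.204). The muscle isoform *Cox7a1* made up 1.76% ± 0.361 and 1.96% ± 0.414 of the pair with *Cox7a2* (exact permutation p = 0.283). For *Cox6b2* the share of the pair with *Cox6b1* was 0.363%, 0.634% and 0.995% in the lowest, median and highest B6 mouse and 0.576%, 0.828% and 1.13% in the congenic mice, with 7 of 8 congenic mice above the B6 median (difference 0.181 percentage points, exact permutation p = 0.118). *Ndufa4l2* took 0.738% ± 0.147 and 0.790% ± 0.0929 of the pair with *Ndufa4* (exact permutation p = 0.413). In these 5 pairs the ubiquitous gene supplied nearly all of the transcripts in both genotypes.

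The membrane ring of ATP synthase is built from 1 mature protein that 3 genes encode with different import sequences. *Atp5g3* supplied 47.9% ± 1.23 of the transcripts in B6 and 48.4% ± 1.34 in the congenic mice, *Atp5g1* 31.1% ± 1.23 and 30.6% ± 1.30, and *Atp5g2* 21.0% ± 0.485 and 21.1% ± 0.261 (SD, n = 8 each). The exact permutation p was 0.480, 0.460 and 0.940. Adjusted over the 8 shares tested, each exact permutation p was 0.639 or higher. The adjusted values were 0.714 or higher without congenic mouse 1 and 0.663 or higher without B6 mouse 8 as well. For *Cox6b2* the difference in share was then 0.164 and 0.142 percentage points. In congenic mouse 1 the shares of *Atp5g1*, *Atp5g2* and *Atp5g3* were 30.5%, 20.9% and 48.6%, within the range of the other congenic mice, while its levels of these genes were 1.81 to 1.85 times the median of the other 15 mice.

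**Figure D4:**
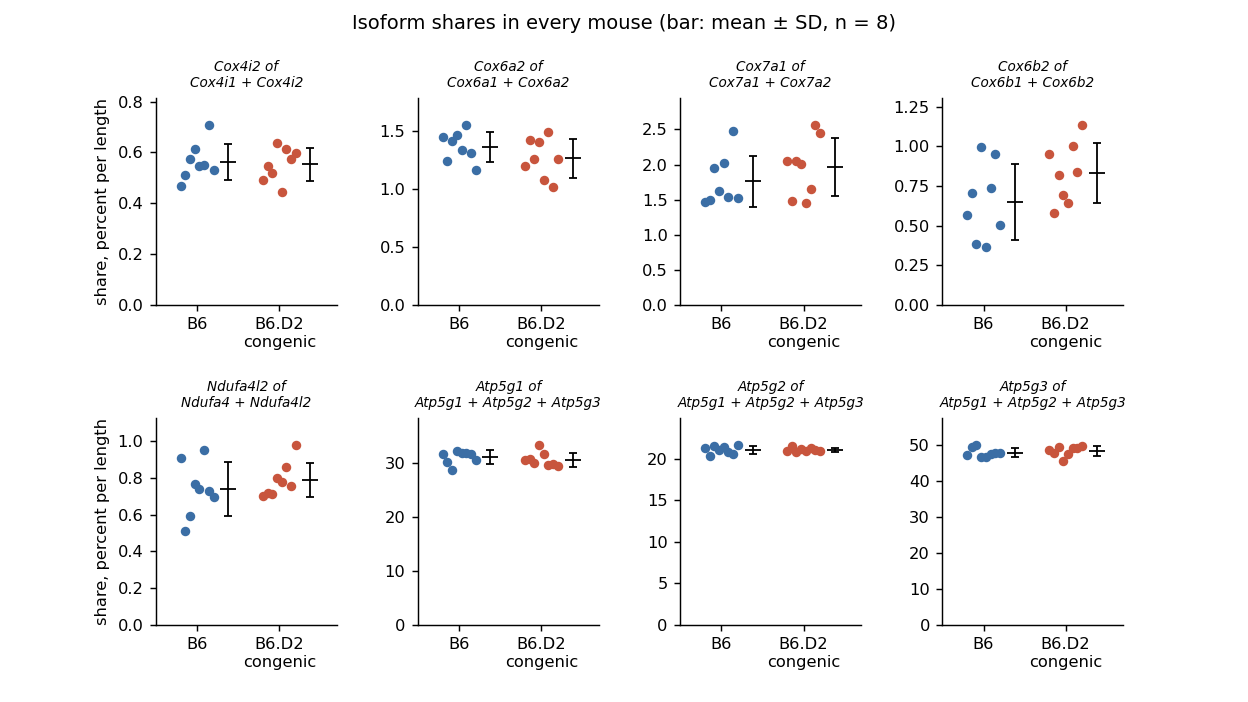
Share of each alternative gene in the sum of its pair or trio, in percent per transcript length, in each mouse, with the mean and SD of 8 mice beside the points. The axes start at 0. The genotypes overlap in all 8 panels, and the shares of the 3 *Atp5g* genes vary little between mice.

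The markers of skeletal and heart muscle, tissues that use *Cox6a2* and *Cox7a1*, summed to 26.3 to 34.6 CPM in B6 and 29.5 to 35.7 CPM in the congenic mice. *Myh7* had the most counts among them, with a mean of 16.8 CPM, and 0 of the 4 muscle markers tested had an unadjusted p under 0.05 between the genotypes with all mice. Without congenic mouse 1 there was 1 of 4, *Acta1*, named after its values were seen and lower in the congenic mice. Its log2 fold change was -0.22 ± 0.092 (SE; FDR 0.337, edgeR). The list went both ways, with 2 of 4 positive with all mice, when *Myh6* had the smallest p at 0.36 ± 0.22 (SE). Its median was -0.040 with all mice and -0.0038 without congenic mouse 1. The part of other cell types in these shares was not tested.

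Across the 80 members, the level in congenic mouse 1 relative to the other mice declined with transcript length (Pearson r = -0.74, Spearman rho = -0.74 across genes, which are not independent replicates and share the library). Its median log2 deviation from the median of all mice was 0.85 for the 35 members with transcripts of up to 700 bp, 0.70 for the 30 members of 700 to 1500 bp and 0.39 for the 15 longer members. Other genes of those lengths deviated in that library too, by 0.65, 0.44 and 0.056, and genes with transcripts over 4000 bp, none of them a member, by -0.35. In B6 mouse 1, which had the lowest level of all mice for 49 of the 80 members, the medians were negative, -0.17, -0.12 and -0.060 for the members and -0.10, -0.050 and -0.0033 for the other genes. In B6 mouse 8 the medians of the members did not decline with length, at 0.090, 0.17 and 0.17. Those of the other genes did, at 0.092, 0.069 and 0.00021. The part of transcript length or of reads with several alignments in the members' levels was not tested. The 4 interneuron markers, led by *Sst*, summed to 529 CPM in congenic mouse 1, to 266 to 326 CPM in the other congenic mice and to 266 to 345 CPM in B6. Between the genotypes, 0 of these 4 genes had an unadjusted p under 0.05 with all mice. Then 2 of 4 were positive, and *Pvalb* had the smallest p, with a log2 fold change of 0.37 ± 0.26 (SE; FDR 0.635, edgeR). Without congenic mouse 1, 2 were lower in the congenic mice, *Sst* and *Npy*, at -0.18 and -0.20 (FDR 0.264 and 0.235, edgeR). The list went both ways, with a median of 0.031 with all mice and -0.0062 without congenic mouse 1. In that fit 1 of 4 microglial markers, *Csf1r*, and 1 of 4 endothelial markers, *Flt1*, were higher, at 0.16 and 0.24 (FDR 0.302 and 0.321), against 0 with all mice. The same 4 genes, named after their values were seen, had an unadjusted p under 0.05 with B6 mouse 8 left out too, and 0 markers of oligodendrocytes, astrocytes or choroid plexus did in any of the 3 fits. The part of these cells was not tested either.

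**Figure D5:**
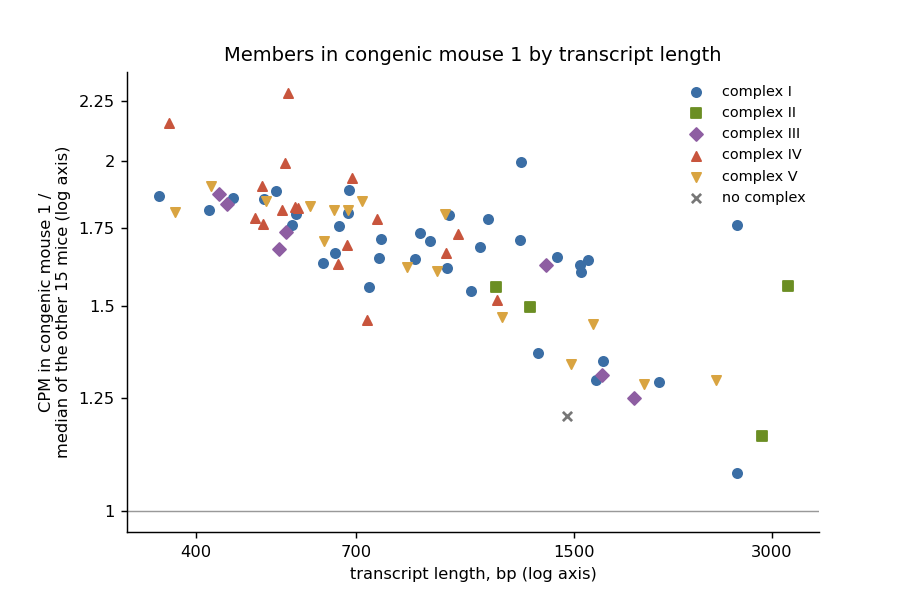
Level of each member in congenic mouse 1, as a ratio to the median of the other 15 mice (log axis), against transcript length in bp (log axis). Each point is a gene, and all 80 points lie above 1, from 1.08 for *Ndufs1* to 2.29 for *Cox6b2*, with most short transcripts higher than the long ones.

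Genes that work beside the respiratory chain were described from lists. Of 37 assembly factors tested, 3 were higher (*Foxred1*, *Pet100* and *Atpaf2*, named after their values were seen) and 1 was lower in the congenic mice at an unadjusted p under 0.05, and 0 passed an FDR of 5%. The share of all genes tested at that threshold was 10%. Positions of the assembly factors were not looked up, so those in or near the D2 segment are not told apart here. The lower one, *Tmem126b*, an assembly factor of complex I, had a log2 fold change of -0.12 ± 0.053 (SE; FDR 0.479, edgeR's quasi-likelihood test), and the median of the list was 0.027. With congenic mouse 1 left out, the median was -0.027, 0 assembly factors were higher and 1 was lower, *Ttc19*, with a log2 fold change of -0.13. Among 12 carriers and partners such as cytochrome c and the adenine nucleotide translocators, 17 enzymes of the citric acid cycle and pyruvate dehydrogenase, and 13 regulators of mitochondrial biogenesis, 0 genes had an unadjusted p under 0.05, with median log2 fold changes of 0.050, 0.050 and 0.013. These medians were -0.046, -0.020 and -0.013 without congenic mouse 1, when 1 of these genes, *Polrmt*, had an unadjusted p under 0.05, with a log2 fold change of 0.16 (FDR 0.264, edgeR). With both mice left out the medians were -0.025, 0.010 and -0.010, and that of the assembly factors -0.018. The smallest p-values of these lists belonged to *Etfb*, an electron transfer flavoprotein subunit, *Idh3g*, a subunit of isocitrate dehydrogenase, and *Polrmt*, the mitochondrial RNA polymerase, with log2 fold changes of 0.10, 0.14 and 0.12 and an FDR of 0.737, 0.502 and 0.527. The carriers summed to 3311 CPM in congenic mouse 1 and to 2182 to 2266 CPM in the other congenic mice, and the citric acid cycle list to 3363 CPM against 2793 to 2920. The biogenesis regulators, by contrast, summed to 397 CPM in congenic mouse 1, the lowest of the congenic mice, against 407 to 436 CPM.

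Ribosomal protein genes, another set of short and abundant transcripts, were compared as well. Of 76 tested, 75 had a positive log2 fold change with all mice, 0 had an unadjusted p under 0.05, and the median was 0.073, against -0.029 without congenic mouse 1, when 1 gene, *Rps4y2*, named after its values were seen, was lower at an unadjusted p under 0.05. With B6 mouse 8 left out as well the median was 0.0080, where that of the members was -0.016. The ribosomal protein genes summed to 21160 CPM in congenic mouse 1, to 13100 to 14170 CPM in the other congenic mice and to 16170 CPM in B6 mouse 8, the highest B6 mouse.

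Within lane pairs, the medians over all members had opposite signs. Among mice 1 to 4, sequenced on lanes 5 and 6, 79 of 80 members were positive, with a median log2 fold change of 0.22, and that set holds congenic mouse 1. Among mice 5 to 8, on lanes 7 and 8, 16 of 80 were positive, with a median of -0.037, and that set holds B6 mouse 8. The median of complex III was 0.21 in the former set and 0.0020 in the latter, and those of the other 4 complexes were positive in the former and negative in the latter. The difference between the lane pairs was not tested. On chromosome 11 of GRCm38, *Uqcr10* (4701968 to 4704344), *Atp5g1* (96072793 to 96075694) and *Atp5h* (115415691 to 115419919) were the members, and none lay between *Hnrnph1* (50375257 to 50386528) and *2610507I01Rik* (59197793 to 59202431), genes inside the D2 segment. This holds for the members alone. Positions of *Uqcrq* and of the other genes left out by name were not looked up, so such a gene may lie in the segment.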

How the data were processed

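RNA of pooled striatal punches from 16 mice was sequenced by the authors, who trimmed the last base of the reads, aligned them with TopHat to mm10 and obtained a count for each gene from HTSeq (0.6.1p1 in the submitters' processing notes) without the strand. The authors deposited raw counts per mouse and lane. Reads with several alignments, or over several genes, are not in these counts, so that genes with near-identical copies are uncertain, and reads from a gene and an antisense neighbour cannot be told apart. The authors' tables of fold changes and p-values were not used here.

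The 31 lane files analysed were summed per mouse (1 file for B6 mouse 7), since the chi-square per degree of freedom between lane files was 0.997 to 1.051. Between 61.4% and 68.3% of reads were counted on genes. Home cage, a term of the study's model, is not in the labels and was not entered. Genes passing filterByExpr were scaled by TMM and fitted in edgeR 4.0.16 (R 4.3.3; quasi-likelihood), with FDRs over all genes, after a test on simulated data. Alternatives were other scaling, filters and tests (DESeq2 1.42.0), lanes, a block for the mouse number, and mice left out. Leaving out congenic mouse 1 together with B6 mouse 8 was chosen after seeing the data. The SE given for an edgeR log2 fold change was derived from the test, as its absolute value over the square root of the F statistic. Deviations used log2 of CPM plus 0.5. Positions and promoters came from RefSeq (GRCm38.p6). Transcript lengths came from GENCODE on NCBIM37, as the shortest coding transcript with the longest coding sequence and both untranslated ends. Shares were tested over all 12870 regroupings of the mice, and the share of *Cox8b* was left out because it is not a member. Named genes were, per complex, those with the 2 smallest p-values and the highest and lowest level per length, with isoform pairs, core subunits and the smallest p of each list. *Ndufa9*, *Atp5d*, *Atp5sl*, *Cox5b*, *Cox7b*, *Cox7a2l* and *Ttc19* were named after their values were seen. Of the members, 1 was withheld for evaluation: it is left out of the single genes described and of the figure of levels, and stays in counts, sums and medians. The members and lists were chosen with earlier results of these data known.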

Additional observations from a re-analysis of the deposited data

Results flagged for a closer look

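In groups of 8 mice, the highest or lowest mouse was compared with its nearest neighbour relative to the range of its group (Dixon's criterion). Of 60 groups examined, 22 had a mouse that stood apart, where chance gives about 1 in 20, and 20 of the 22 were congenic mouse 1. The values share a library and are not independent.

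Congenic mouse 1 stood apart in the share of reads with more than 1 alignment, 27.3%, and in the share outside annotated exons, 10.2%. It stood apart in the summed level of complexes I to V, at 4273, 883, 1245, 3944 and 5408 CPM. Its sums were also far from those of the other congenic mice for the assembly factors (1396 CPM), the carriers (3311 CPM), the citric acid cycle enzymes (3363 CPM) and the ribosomal proteins (21160 CPM). Among single members it was far above the rest of its genotype for *Ndufb10* (155 CPM), *Ndufv3* (86.5 CPM), *Sdhc* (147 CPM), *Sdhb* (156 CPM), *Uqcrb* (99.0 CPM), *Uqcr10* (139 CPM), *Ndufa4l2* (4.55 CPM), *Atp5l* (231 CPM) and *Atp5j2* (196 CPM). B6 mouse 8 stood apart from the other B6 mice in the share of reads outside annotated exons, 11.3%, and in *Sdhc*, at 109 CPM.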

How the results depend on the processing

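No alternative gave a member past an FDR of 5%. The count of members at an unadjusted p under 0.05, 0 with all mice, was 2 of 80 with upper-quartile scaling, where 10.2% of all genes tested had such a p. It was 1 of 80 without a filter on low counts (8.81% of all genes), with the likelihood ratio test (1496 of 15589 genes), with DESeq2 (10.3%), with the second lane only (9.33%) and among mice of lanes 7 and 8 (9.01%). It was 0 to 3 of 80 when each mouse was left out in turn (7.09% to 13.4% of all genes). Genes at an FDR of 5%, 1 with all mice, numbered 20 with the likelihood ratio test, 25 with DESeq2, 2 with the lane pair as a covariate, 0 within either lane pair, 7 without congenic mouse 1 and B6 mouse 8, and 1 to 4 when each mouse was left out. At an unadjusted p under 0.05 there were 500 genes among mice of lanes 5 and 6, and 1107 to 2087 when each mouse was left out.

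With the mouse number as a replicate block, 0 genes passed an FDR of 5%, 0 members had an unadjusted p under 0.05, and the members' median log2 fold change was 0.068. Mice of a number were run on the same lane pair, and home cage is not in the labels. Deviations correlated above 0.1 in 3 of 8 pairs, and 2 of 8 B6 mice correlated best with the congenic mouse of their own number.

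Leaving out each mouse moved the members' median log2 fold change between -0.028 and 0.12, with ranges of -0.032 to 0.12, -0.039 to 0.064, -0.017 to 0.13, -0.026 to 0.14 and -0.029 to 0.10 in complexes I to V. The lowest value of each range was that without congenic mouse 1. The log2 fold change reversed among mice of lanes 7 and 8 for *Sdhc* (-0.049), *Sdhb* (-0.078), *Atp5l* (-0.0026) and *Atp5j2* (-0.011), and without congenic mouse 1 and B6 mouse 8 for *Sdhb* (-0.026), *Uqcr10* (-0.014), *Atp5l* (-0.018) and *Atp5j2* (-0.0093). When each mouse was left out it ranged from -0.021 to 0.11 for *Sdhc*, -0.058 to 0.076 for *Sdhb*, -0.0073 to 0.17 for *Uqcr10*, -0.013 to 0.16 for *Atp5l* and -0.015 to 0.15 for *Atp5j2*. Differences in share, in percentage points, reversed among mice of lanes 5 and 6 for *Cox4i2* (0.0071), *Atp5g1* (0.433) and *Atp5g3* (-0.501), and for *Atp5g2* among mice of lanes 7 and 8 (-0.038) and with the second lane only (-0.042). Leaving out each mouse gave -0.023 to 0.011 for *Cox4i2* and -0.095 to 0.096 for *Atp5g2*. No share passed the threshold with the second lane only or when each mouse was left out. Within a lane pair, with 4 mice of each genotype, the exact test could not bring a single share past the threshold after adjustment. The causes were not tested. The rare isoforms of complex IV had means of 1.10 CPM for *Cox7a1* to 3.72 CPM for *Cox6a2*. At such levels counting error adds to the spread between mice, and its part was not tested.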
